A study of Mus musculus with 55 samples.

Results

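Expression of 10 genes of glutathione metabolism and antioxidant defence was followed in the cerebellum of mouse pups exposed to chlorpyrifos oxon (CPO), the active oxon of the organophosphate insecticide chlorpyrifos. They were chosen by gene symbol as Gclc, Gclm, Slc7a11, Gpx4, Gsta4, Gstm1, Txnrd1, Srxn1, Nqo1 and Hmox1. These 10 genes had 11 probe sets among the 35557 probe sets and 19938 genes of the table, because Gpx4 had a pair of them. All 10 genes lay above the level filter and entered the test with 14950 genes.

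RNA from bisected cerebella was hybridised to 55 arrays of the type Affymetrix Mouse Gene 1.0 ST. The labels give the strain of every sample as C57Bl/6 and the age as postnatal day 22. Pups were injected under the skin each day from postnatal day 4 to 21 with CPO at 0.35 or 0.5 mg/kg/day or with the vehicle DMSO. The treatment label spells the agent out as chlorpyrifos, whereas the design text names the oxon. Arrays labelled KO (Pon1-/-) numbered 5 at CPO 0.35, 3 at CPO 0.5 and 4 at vehicle. Q192 arrays (tgHuPON1Q192, a human PON1 transgene of the Q192 form) numbered 5, 5 and 4 at the same treatments. R192 arrays (tgHuPON1R192, the R192 form) also numbered 5, 5 and 4, and wild type (WT) arrays numbered 6, 3 and 6. Transgenic lines of this name are known to carry the human gene on the Pon1-/- background. The sources used here do not state this for these pups, nor the promoter of the transgenes, and each genotype may stand for a single line. The cerebellar genes Gabra6, Cbln3, Pcp2 and Zic1 averaged between 10.17 and 12.61 on the log2 scale over the 55 arrays.

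The targeted gene went against its label. The Pon1 probe set averaged 10.08 ± 0.19 on the log2 scale in arrays labelled KO (SD, n = 12), 10.10 ± 0.14 in Q192 arrays (n = 14) and 10.13 ± 0.11 in R192 arrays (n = 14), against 5.19 ± 0.24 in WT arrays (n = 15). The sources used here do not say which part of Pon1 its probes read, so the value does not test the knockout. The expression "arrays labelled KO" is kept for that reason. Other features of the arrays touch the results. A WT vehicle array, replicate 4, stood at the low end of the second principal axis of the table, with a score of -30.9. An array labelled KO at CPO 0.35, replicate 5, shared the number in its description with R192 arrays at CPO 0.35. WT arrays at CPO 0.35, replicates 1 and 2, stood at the high end of that axis, with scores of 32.8 and 35.6. They were 2 of the 3 arrays with high Xist, the third being vehicle replicate 4 among arrays labelled KO, and sex is not labelled.

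Glutathione is the main small thiol of the cell. Glutamate-cysteine ligase, made of the catalytic subunit Gclc and the modifier subunit Gclm, catalyses the step that limits its synthesis, and Slc7a11 is the transport subunit of the cystine/glutamate exchanger that brings in the cystine for it. Gpx4 uses glutathione to reduce lipid hydroperoxides in membranes, whereas Gsta4 and Gstm1 conjugate it to electrophiles, Gsta4 preferring the lipid aldehyde 4-hydroxynonenal. Txnrd1 keeps cytosolic thioredoxin reduced, Srxn1 repairs overoxidised peroxiredoxins, Nqo1 reduces quinones and Hmox1 breaks down haem. The transcription factor Nrf2 is known to induce many of these genes through antioxidant response elements. In brain, glutathione synthesis and cystine import are associated mostly with astrocytes.

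RefSeq promoter windows of the GRCm38.p6 build, running from 250 bases before to 50 after a transcription start, were available for 7 of the 10 genes in 13 windows. Gclc, Gsta4 and Hmox1 had no entry. The windows were searched on both strands for the core of the antioxidant response element, TGACNNNGC, and for the AP-1 site TGAGTCA, which may be part of longer elements of the same kind. The core was found in 3 of the 13 windows, those of Srxn1, Gclm and 1 start of Txnrd1, and in 12.4% of all 32851 windows. TGAGTCA was found in 1 of the 13, the Srxn1 window, where it occurred at a pair of places, and in 5.2% of all windows, and no match of one motif overlapped a match of the other. The windows with a match are printed below, because they are the genes of the group with such letters at the start, together with the most upstream Gpx4 window, since Gpx4 was the only one of the 10 genes to pass the test. Capitals mark the matches, which in all 3 cases of the core are its reverse complement, and the Gpx4 window holds neither motif.
Gpx4, chr10:80046916-80047215, plus strand: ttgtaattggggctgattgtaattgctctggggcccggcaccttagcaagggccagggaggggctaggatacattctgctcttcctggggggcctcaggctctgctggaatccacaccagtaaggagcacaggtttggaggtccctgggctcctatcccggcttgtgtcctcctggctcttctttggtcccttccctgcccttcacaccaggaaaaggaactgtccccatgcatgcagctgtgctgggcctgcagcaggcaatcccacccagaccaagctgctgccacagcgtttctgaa
Srxn1, chr2:152105274-152105573, plus strand: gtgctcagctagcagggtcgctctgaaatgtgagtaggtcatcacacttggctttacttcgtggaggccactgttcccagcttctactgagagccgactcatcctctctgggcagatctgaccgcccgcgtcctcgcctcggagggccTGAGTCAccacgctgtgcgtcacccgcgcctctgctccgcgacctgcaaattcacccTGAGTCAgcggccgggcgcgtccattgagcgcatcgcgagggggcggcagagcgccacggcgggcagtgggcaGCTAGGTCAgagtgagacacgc
Gclm, chr3:122245307-122245606, plus strand: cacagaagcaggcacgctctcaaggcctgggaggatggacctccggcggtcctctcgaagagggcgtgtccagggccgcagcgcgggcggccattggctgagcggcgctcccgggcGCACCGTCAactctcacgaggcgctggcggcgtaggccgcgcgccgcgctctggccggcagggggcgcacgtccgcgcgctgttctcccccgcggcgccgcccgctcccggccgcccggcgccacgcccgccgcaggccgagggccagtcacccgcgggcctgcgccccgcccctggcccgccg
Txnrd1, chr10:82858956-82859255, plus strand: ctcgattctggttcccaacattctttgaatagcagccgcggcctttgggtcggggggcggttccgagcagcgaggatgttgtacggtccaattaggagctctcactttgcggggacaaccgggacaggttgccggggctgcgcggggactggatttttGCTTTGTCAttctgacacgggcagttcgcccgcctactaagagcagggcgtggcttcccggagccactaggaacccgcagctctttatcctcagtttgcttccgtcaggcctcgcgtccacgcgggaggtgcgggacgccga
A match describes the letters of the window and was not tested for binding of any factor.

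The 10 genes varied over very different ranges, as shown in the plot of their levels by array. Slc7a11 had the widest spread, with an SD of 0.332 on the log2 scale over the 55 arrays and values from 8.78 to 10.34, at percentile 97.6 of the SDs of all genes tested. Gsta4 had an SD of 0.215 (percentile 86.7) and Gstm1 of 0.173 (percentile 72.8). Gclc had the narrowest spread of the 10, with an SD of 0.066 and values from 9.44 to 9.75, at percentile 0.4. Srxn1 and Hmox1 were also steady, at percentiles 19.1 and 24.8. The subunits of glutamate-cysteine ligase differed in spread, the modifier Gclm having an SD of 0.134 and lying at percentile 47.1.

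**Figure D1:**
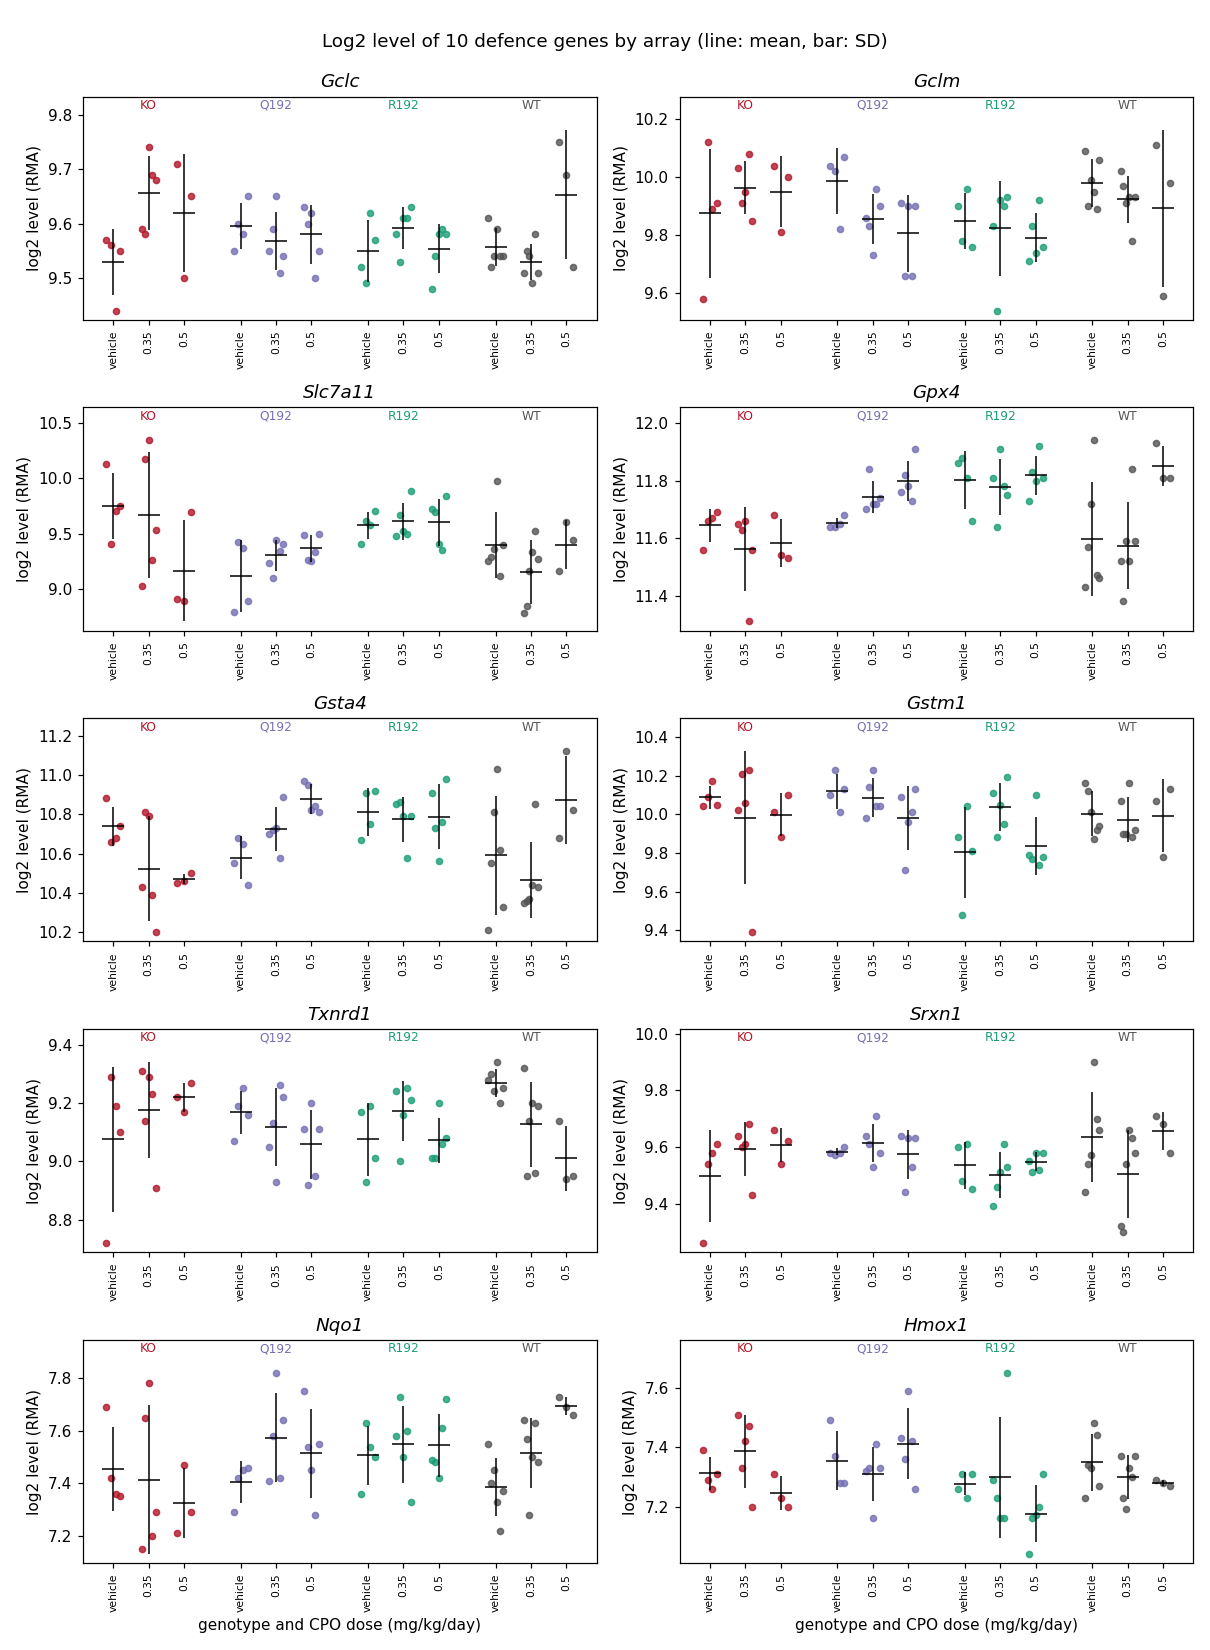
Log2 level of each of the 10 genes on each of the 55 arrays, in 1 panel a gene, with groups ordered by genotype (KO as labelled, Q192, R192, WT) and, within it, by CPO dose in mg/kg/day. Points are arrays, the horizontal line is the group mean and the bar its SD, and the axes differ between panels. Slc7a11 spans 8.78 to 10.34 and is most scattered in arrays labelled KO, while Gclc stays between 9.44 and 9.75.

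The comparison of genotypes, on the mean of 3 treatments, asked whether the defence genes differ between lines whatever the exposure. Gpx4 was higher in R192 arrays than in arrays labelled KO, and it was the only one of the 10 genes to pass in any of the 20 comparisons made. In R192 arrays its lowest, median and highest log2 levels were 11.64, 11.81 and 11.92, against 11.31, 11.64 and 11.69 in arrays labelled KO. All 14 R192 arrays stood above the mean of the arrays labelled KO, and the ranges met only between 11.64 and 11.69. Gpx4 averaged 11.80 ± 0.08 in R192 arrays (SD, n = 14) and 11.59 ± 0.11 in arrays labelled KO (n = 12). The fitted log2 difference was 0.21 (SE 0.048, 95% interval 0.11 to 0.30), a 1.15-fold difference, with limma's adjusted p = 0.00804. In this comparison 5.61% of all genes tested passed, so 1 of 10 was near the background.

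The second Gpx4 probe set gave the same picture. It averaged 11.55 ± 0.08 in R192 arrays and 11.36 ± 0.10 in arrays labelled KO, and the fit with it gave a log2 difference of 0.20 (limma, adjusted p = 0.00919). The probe sets correlated at r = 0.99 over the 55 arrays, so they are not independent readings. The gene table also lists the pseudogenes Gpx4-ps1 and Gpx4-ps2, whose transcripts such probes could share. The difference was 0.19 on the arrays of date 1 alone (limma, adjusted p = 0.173) and 0.22 on those of date 2 alone (limma, adjusted p = 0.163), so the size held within each date and the call did not. Leaving out each array in turn gave 0.19 to 0.22 (limma, adjusted p from 0.00172 to 0.0307).

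The means of some cell type markers also differed between R192 arrays and arrays labelled KO. The mean of the 11 microglial genes found of 12 listed was 8.07 ± 0.11 in R192 arrays (range 7.92 to 8.38) and 7.88 ± 0.12 in arrays labelled KO (range 7.62 to 8.04). That of the 12 granule neuron genes, all found, was 10.69 ± 0.14 in R192 arrays (range 10.38 to 10.87) and 10.88 ± 0.23 in arrays labelled KO (range 10.53 to 11.28). Over the 55 arrays Gpx4 correlated with the microglial mean at r = 0.52 and with the granule neuron mean at r = -0.52. With the other marker lists r ran from -0.46, for Purkinje cells, to 0.38. It was -0.01 for Bergmann glia and astrocytes and -0.03 for choroid plexus. In WT arrays the microglial mean was 8.05 ± 0.26 and the Gpx4 mean 11.64 ± 0.19. The part of microglia and granule neurons in the Gpx4 difference was not tested. In bulk tissue, fewer cells of a type and less RNA per cell cannot be told apart.

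The other genotype pairs gave Gpx4 values in between. Q192 arrays averaged 11.74 ± 0.08 (SD, n = 14), all 14 above the mean of the arrays labelled KO, with a log2 difference of 0.14 from them (limma, adjusted p = 0.292). Against WT arrays, whose mean was 11.64 ± 0.19 (n = 15) and whose range of 11.38 to 11.94 covered every R192 array, the difference of R192 was 0.13 (limma, adjusted p = 0.209). It was 0.15 without WT vehicle replicate 4, with an adjusted p of 0.0417 in limma. Q192 and WT arrays differed by 0.06 in Gpx4 and R192 and Q192 arrays by 0.07, neither of which passed (limma, adjusted p = 0.983 and 0.599). In the order R192, Q192, WT and KO as labelled, the tests therefore separated only the ends.

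Gsta4, the transferase for lipid aldehydes, lay just outside the threshold in the same pair. Its lowest, median and highest log2 levels were 10.56, 10.79 and 10.98 in R192 arrays, against 10.20, 10.58 and 10.88 in arrays labelled KO. The groups overlapped widely, and 12 of 14 R192 arrays stood above the mean of the arrays labelled KO. The log2 difference was 0.22 (95% interval 0.07 to 0.36; limma, adjusted p = 0.0565). Gsta4 passed in 5 of 17 alternatives and in 10 of 55 fits without 1 array, and its adjusted p in limma ran from 0.00125 to 0.38 over them. Over the 55 arrays Gsta4 correlated at r = -0.64 with the granule neuron mean, at r = 0.56 with the microglial mean and at r = 0.45 with the meningeal fibroblast mean. The first and second of these differed between R192 arrays and arrays labelled KO as given for Gpx4, and the meningeal mean was 8.32 ± 0.10 in R192 arrays and 8.27 ± 0.31 in arrays labelled KO. The part of these cell types in the Gsta4 difference was not tested.

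Slc7a11, the cystine carrier, had the largest single genotype difference of the 10 genes on the log2 scale, and none of its differences passed. Its lowest, median and highest levels were 9.35, 9.59 and 9.88 in R192 arrays, against 8.79, 9.34 and 9.50 in Q192 arrays. All 14 R192 arrays stood above the Q192 mean, although the ranges overlapped. The log2 difference was 0.34 (95% interval 0.13 to 0.55; limma, adjusted p = 0.374), in a comparison where 0.0736% of all genes passed and 0 of the 10 did. With only R192 and Q192 arrays in the fit, Slc7a11 passed, with a log2 difference of 0.33 and an adjusted p of 0.0128 in limma. Arrays labelled KO spread more widely, from 8.89 to 10.34 with an SD of 0.49, against an SD of 0.29 in WT arrays.

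Slc7a11 was also the gene of the 10 that followed markers of the brain coverings. Over the 55 arrays it correlated at r = 0.78 with the mean of the 8 meningeal fibroblast genes, and its closest gene among all tested was Abca9 (r = 0.84). The meningeal mean was 8.32 ± 0.10 in R192 arrays (range 8.15 to 8.50), against 8.18 ± 0.12 in Q192 arrays (range 8.02 to 8.43). In arrays labelled KO it was 8.27 ± 0.31 (range 7.92 to 8.99) and in WT arrays 8.25 ± 0.12 (range 8.11 to 8.57). The part of the meninges in the Slc7a11 values was not tested.

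The remaining genes differed little between genotypes. Gclc, the catalytic subunit, had log2 differences between -0.04 and 0.03 in the 6 pairs, and the 95% interval farthest from 0 ran from -0.10 to 0.02. Gclm was lower by 0.11 in R192 than in WT arrays (limma, adjusted p = 0.374), with 13 of 14 R192 arrays below the WT mean. Gstm1 was lower by 0.16 and Hmox1 by 0.10 in R192 than in Q192 arrays, and neither passed (limma, adjusted p = 0.468 and 0.475). Other members of the Gstm family lie with Gstm1 on chromosome 3 and are close in sequence, so its probes may read several of them, and its closest gene over the arrays was Gstm3 (r = 0.85). Nqo1 was lower by 0.14 in arrays labelled KO than in WT arrays (limma, adjusted p = 0.99). Txnrd1 and Srxn1 stayed within 0.06 in every pair. Of the 10 genes, 0 passed between arrays labelled KO and WT, Q192 and WT, R192 and WT, or Q192 and KO as labelled, where 0.375%, 0.455%, 0.87% and 0.401% of all genes passed. The numbers of the 10 at an unadjusted p under 0.05 in limma were 2, 0, 4 and 2, against 4.88%, 4.7%, 12.9% and 9.53% of all genes. Between R192 arrays and arrays labelled KO the number was 3, against 22.4% of all genes. Between R192 and Q192 arrays it was 3, against 9.97%.

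Weighting arrays by their quality raised the calls of the 10 genes together with those of all genes. Between R192 arrays and arrays labelled KO, 7 of the 10 then passed, where 36.1% of all genes did. Gpx4, Gsta4 and Nqo1 were higher in R192 arrays there, and Gclm, Gstm1, Txnrd1 and Srxn1 lower, by between -0.18 and -0.09 on the log2 scale. Between R192 and WT arrays 3 passed against 9.25% of all genes, between Q192 arrays and arrays labelled KO 1 against 10%, and between R192 and Q192 arrays 1 against 1.95%. At CPO 0.5 in WT arrays 4 passed against 16.8%, and for the difference of the CPO 0.5 effect between arrays labelled KO and WT arrays 2 against 9.47%.

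**Figure D2:**
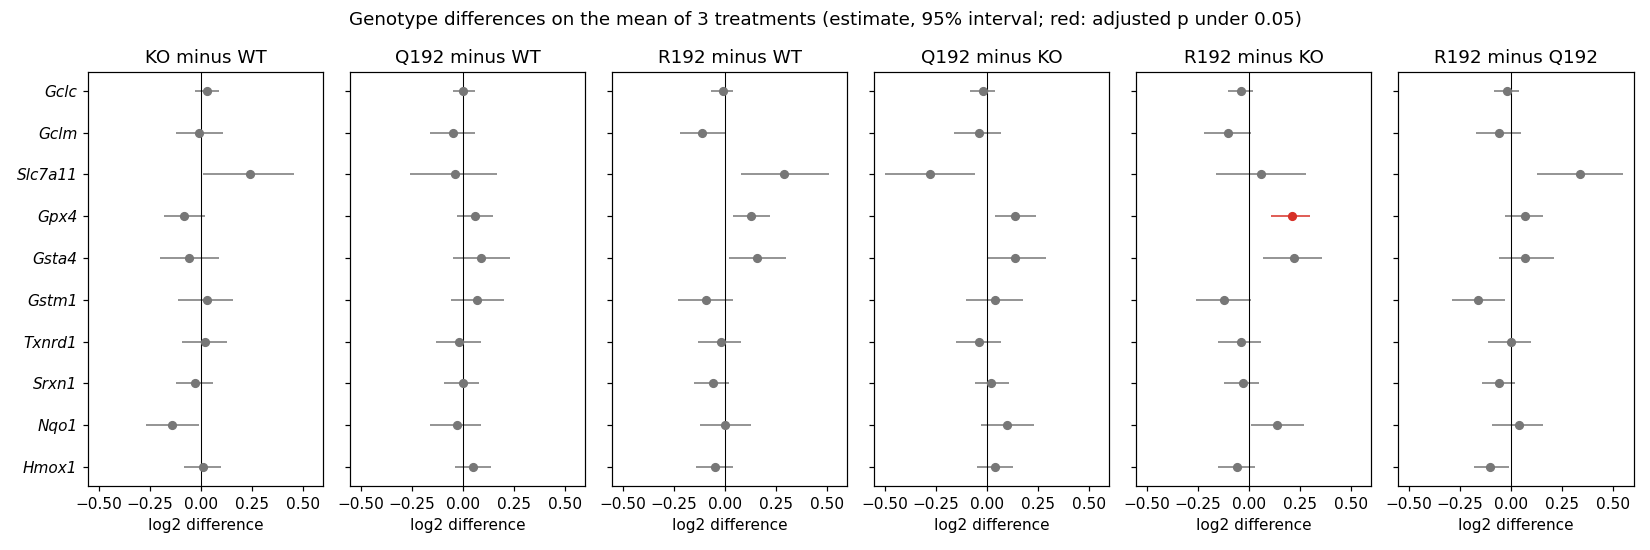
Log2 differences of the 10 genes between genotypes on the mean of 3 treatments, in 1 panel for each of the 6 pairs, with 95% intervals from limma. Red marks an adjusted p under 0.05, which only Gpx4 reached, at 0.21 between R192 arrays and arrays labelled KO. Slc7a11 has the widest intervals.

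The comparison of each CPO dose with vehicle within a genotype asked whether the exposure alters these genes. None of the 10 passed at either dose in any genotype. At CPO 0.5, the share of all genes that passed was 0% in arrays labelled KO, Q192 and R192 and 1.04% in WT arrays. At CPO 0.35 it was 0% in arrays labelled KO, Q192 and R192 and 0.00669% in WT arrays. At an unadjusted p under 0.05 in limma, 4 of the 10 genes stood out at CPO 0.5 in WT arrays, against 21.9% of all genes. At most 1 did in each of the other 7 comparisons, where the share of all genes ran from 1.02% to 20.3%. The 95% intervals reached between 0.09, for Gclc, and 0.43, for Slc7a11, to either side of the difference. An interval clear of 0 was not enough to pass, because p was adjusted over 14950 genes. Differences larger than these widths could therefore also be missed.

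In WT arrays at CPO 0.5, Nqo1 and Txnrd1 did not overlap with vehicle. Nqo1, the quinone reductase, had log2 levels of 7.73, 7.69 and 7.66 at CPO 0.5, against 7.55, 7.40, 7.45, 7.33, 7.22 and 7.37 at vehicle. Every CPO array was above every vehicle array, with a log2 difference of 0.29 (95% interval 0.06 to 0.52; limma, adjusted p = 0.13). Txnrd1, the thioredoxin reductase, had 9.14, 8.94 and 8.95 at CPO 0.5, against 9.28, 9.30, 9.24, 9.34, 9.20 and 9.25 at vehicle. Every CPO array was below every vehicle array, with a log2 difference of -0.26 (95% interval -0.46 to -0.07; limma, adjusted p = 0.112). With the score on the first principal axis as a covariate the difference was -0.09 for Txnrd1 and 0.19 for Nqo1 (limma, adjusted p = 0.678 and 0.543). That axis was computed from the same levels and may itself hold a CPO effect, so no conclusion is drawn from this fit. Nqo1 and Txnrd1, both known as Nrf2 targets, lay on opposite sides of vehicle. Groups did not overlap for 13.2% of all genes in this comparison.

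Gpx4 in WT arrays turned on 1 vehicle array. Its levels were 11.93, 11.81 and 11.81 at CPO 0.5, against 11.43, 11.57, 11.72, 11.94, 11.47 and 11.46 at vehicle. The CPO arrays stood above every vehicle array but replicate 4, the array at the low end of the second principal axis. The log2 difference was 0.25 (95% interval 0.08 to 0.43; limma, adjusted p = 0.094), and without that array it was 0.32 (limma, adjusted p = 0.0165). Gsta4 had 10.68, 11.12 and 10.82 at CPO 0.5, against 10.21, 10.55, 10.81, 11.03, 10.62 and 10.33 at vehicle. Its groups overlapped, with a log2 difference of 0.27 (limma, adjusted p = 0.211). Granule neuron markers in WT arrays averaged 10.48 ± 0.52 at CPO 0.5 (range 9.88 to 10.79). At vehicle they averaged 10.67 ± 0.73 (range 9.32 to 11.49). The vehicle array at 9.32 was replicate 4, and the other vehicle arrays lay at 10.55 or above. Replicate 4 was also the highest vehicle array in microglial markers, at 8.54, and in myelin markers, at 12.26. The CPO array at 9.88 was replicate 2, the highest of the CPO arrays in microglial markers, at 8.33, and in Gsta4. It stayed in the fit without vehicle replicate 4. The part of these markers in the differences was not tested.

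In arrays labelled KO at CPO 0.5, Slc7a11 and Gsta4 lay lowest against vehicle. Slc7a11 had log2 levels of 8.91, 8.89 and 9.69 at CPO 0.5, against 10.13, 9.41, 9.70 and 9.75 at vehicle. A pair of CPO arrays was below all vehicle arrays and the third stood among them, with a log2 difference of -0.55 (95% interval -0.97 to -0.12; limma, adjusted p = 0.387). The value was -0.87 on arrays of date 1 and -0.04 on arrays of date 2, which hold 2 and 1 of the CPO arrays. The low CPO arrays, replicates 1 and 2, also shared the number in their description, and the third had another number. They may thus share a source, which the labels do not state. The 8 meningeal fibroblast markers averaged 7.98, 7.92 and 8.32 on the same CPO arrays, against 8.46, 8.16, 8.33 and 8.09 at vehicle, so the CPO arrays low in Slc7a11 were also the lowest in these markers. Choroid plexus markers, all 8 found, averaged 8.12 ± 0.20 at CPO 0.5 (range 7.89 to 8.29) and 8.54 ± 0.38 at vehicle (range 8.21 to 9.07) in these groups, and the part of either marker list was not tested. Gsta4 had 10.45, 10.46 and 10.50 at CPO 0.5, against 10.88, 10.66, 10.68 and 10.74 at vehicle. Its groups did not overlap, which held for 8.93% of all genes here, and the log2 difference was -0.26 (95% interval -0.54 to 0.02; limma, adjusted p = 0.391).

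In Q192 arrays at CPO 0.5, Gsta4 and Gpx4 lay above vehicle without overlap. Gsta4 had log2 levels of 10.97, 10.95, 10.82, 10.84 and 10.81 at CPO 0.5, against 10.55, 10.68, 10.65 and 10.44 at vehicle. All 5 CPO arrays exceeded all vehicle arrays, and the log2 difference of 0.31 (95% interval 0.06 to 0.55) had an adjusted p of 0.333 in limma. Gpx4 had 11.76, 11.82, 11.78, 11.73 and 11.91 at CPO 0.5, against 11.64, 11.64, 11.65 and 11.68 at vehicle. The vehicle arrays were tightly grouped and all lay below, with a log2 difference of 0.15 (95% interval -0.02 to 0.31; limma, adjusted p = 0.414). Over vehicle, 0.35 and 0.5, the Q192 means were 10.58, 10.72 and 10.88 for Gsta4 and 11.65, 11.74 and 11.80 for Gpx4. Groups did not overlap for 9.35% of all genes at CPO 0.5 in Q192 arrays. The granule neuron markers averaged 10.57 ± 0.18 at CPO 0.5 (SD, n = 5; range 10.35 to 10.76) and 10.93 ± 0.14 at vehicle (n = 4; range 10.80 to 11.13) in Q192 arrays, also without overlap. Over the 55 arrays Gsta4 correlated with them at r = -0.64 and Gpx4 at r = -0.52, and their part in these differences was not tested. In R192 arrays 0 of the 10 genes were free of overlap with vehicle at either dose, against 2.53% of all genes at CPO 0.35 and 0.823% at CPO 0.5.

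At CPO 0.35, only Gclc in arrays labelled KO and Gstm1 in R192 arrays had an unadjusted p under 0.05 in limma. That held for 6.44% and 3.59% of all genes in these comparisons. The smallest adjusted p of the 10 at this dose was 0.285 (limma), for Srxn1 in WT arrays, at 0.921-fold. Without the arrays of high Xist, the log2 difference of Srxn1 there was -0.02 (limma, adjusted p = 0.96). Gclc had log2 levels of 9.59, 9.58, 9.74, 9.69 and 9.68 at CPO 0.35 in arrays labelled KO, against 9.57, 9.56, 9.44 and 9.55 at vehicle. The groups just failed to overlap, which held for 0.829% of all genes, and the log2 difference was 0.13 (95% interval 0.03 to 0.23; limma, adjusted p = 0.66). Gstm1 in R192 arrays had 10.11, 9.88, 10.05, 9.95 and 10.19 at CPO 0.35, against 9.88, 9.48, 10.04 and 9.81 at vehicle. The groups overlapped, and the log2 difference was 0.26 (95% interval 0.04 to 0.49; limma, adjusted p = 0.921). Gpx4 in Q192 arrays also did not overlap with vehicle at CPO 0.35, as for 1.36% of all genes, with a log2 difference of 0.09 (limma, adjusted p = 0.999). In WT arrays 0 of the 10 genes were free of overlap at this dose, against 0.368% of all genes. There 9 of the 10 genes had differences below 0 at CPO 0.35, with a median of -0.05, against a median of -0.01 over all genes. Of the 109 genes tested in the wider pathway lists described below, 83 were below 0, with a median of -0.08. The share of all genes below 0 is not given, so the count is not read as particular to the 10. Without the arrays of high Xist, 8 of the 10 were below 0, with the same medians of -0.05 and -0.01. In WT at CPO 0.35 those arrays are replicates 1 and 2, which were the lowest of the 6 in myelin markers, at 10.84 and 10.48, and in microglial markers, at 7.58 and 7.59. Myelin markers averaged 11.24 ± 0.50 at CPO 0.35 and 11.74 ± 0.34 at vehicle in WT arrays (SD, n = 6 each), and microglial markers 7.86 ± 0.24 and 8.15 ± 0.23. Their part in the differences was not tested.

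Hmox1, the haem oxygenase often used as a sentinel of oxidative stress, had small differences throughout. Its log2 levels were 7.29, 7.28 and 7.27 at CPO 0.5 in WT arrays, against 7.23, 7.34, 7.33, 7.48, 7.44 and 7.27 at vehicle. In arrays labelled KO they were 7.31, 7.23 and 7.20 at CPO 0.5, against 7.39, 7.29, 7.26 and 7.31 at vehicle. CPO arrays lay within the vehicle values in WT, and partly below them in arrays labelled KO. The 8 log2 differences of Hmox1 ran from -0.10 to 0.08, and none passed (limma). Srxn1 ran from -0.12 to 0.12 and Gclm from -0.18 to 0.09, likewise with none passing.

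**Figure D3:**
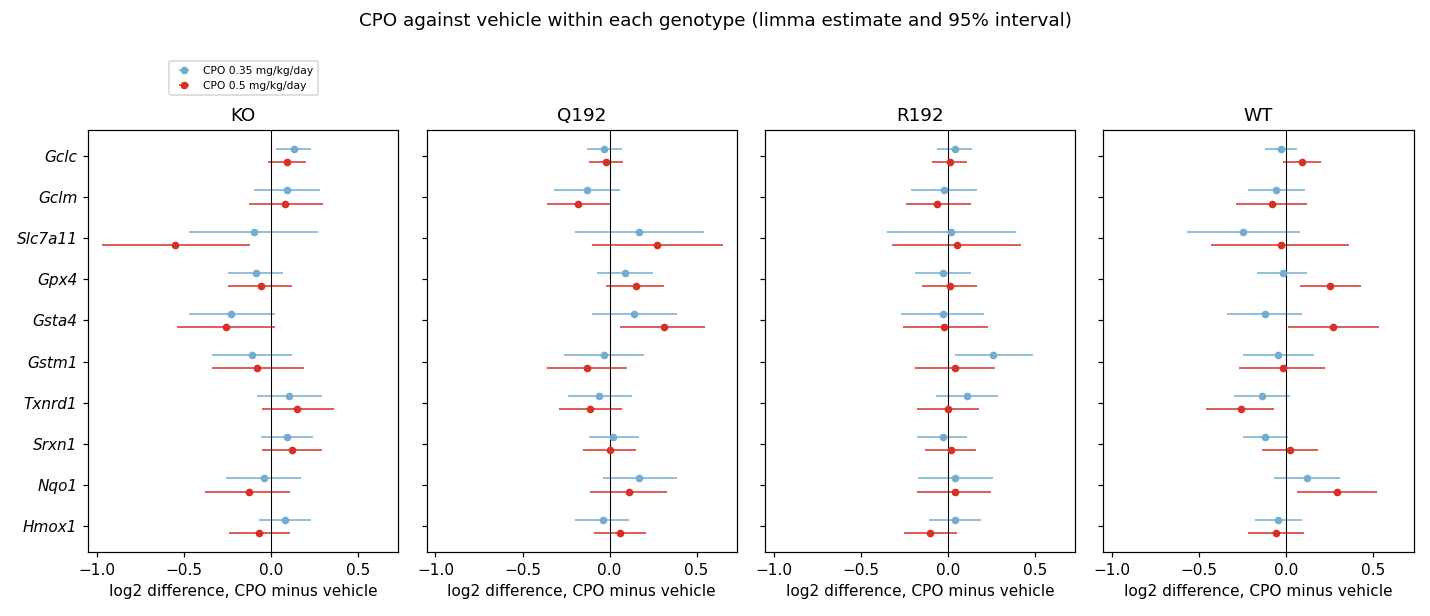
Log2 differences of the 10 genes between CPO and vehicle, in 1 panel a genotype (KO as labelled, Q192, R192, WT), with 95% intervals from limma. Blue is CPO at 0.35 and red CPO at 0.5 mg/kg/day. The R192 panel stays closest to 0 at 0.5, from -0.10 to 0.05, and Slc7a11 in arrays labelled KO at 0.5 is the lowest value, at -0.55.

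On the mean of the 4 genotypes, the 10 genes lay between -0.06 and 0.07 at CPO 0.35 and between -0.06 and 0.09 at CPO 0.5. The highest was Gpx4 at CPO 0.5, at 0.09 (95% interval 0.00 to 0.17, limma, adjusted p = 0.991). There 14 of 16 CPO arrays stood above the mean of all vehicle arrays, a count that ignores genotype. In arrays labelled KO, Q192, R192 and WT, Gpx4 averaged 11.58, 11.80, 11.82 and 11.85 at CPO 0.5. At vehicle it averaged 11.64, 11.65, 11.80 and 11.60 in the same order. In these 2 comparisons 0% of all genes passed and 0 of the 10 did. At an unadjusted p under 0.05 in limma, 0 of the 10 genes stood out at CPO 0.35 and 1 at CPO 0.5, against 1.83% and 4.84% of all genes.

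Whether arrays labelled KO and WT arrays differ in their response to CPO 0.5 was tested as a difference of dose effects. No member of the 10 passed, although 9.2% of all genes did, and 4 of the 10 had an unadjusted p under 0.05 in limma against 31.7% of all genes. For Txnrd1 the CPO effect was 0.15 in arrays labelled KO and -0.26 in WT arrays, a difference of 0.42 on the log2 scale (95% interval 0.13 to 0.70; limma, adjusted p = 0.0519). For Gsta4 the effects were -0.26 and 0.27 in the same order, a difference of -0.53 (95% interval -0.91 to -0.15; limma, adjusted p = 0.0608). Both genes had CPO effects of opposite sign in the 2 genotypes, and the signs of Gsta4 were the reverse of those of Txnrd1. Nqo1 differed by -0.43 and Gpx4 by -0.31 (limma, adjusted p = 0.0808 and 0.0885). Txnrd1 passed in 4 of 17 alternatives and 12 of 55 fits without 1 array, and Gsta4 in 6 and 7. Without WT vehicle replicate 4, Gsta4 passed at -0.61 and Gpx4 at -0.38 (limma, adjusted p = 0.0276 and 0.0279). That fit kept WT replicate 2 at CPO 0.5, which also lay low on the second principal axis, with a score of -18.7. In the fit without this CPO array no member of the 10 passed. The shares of all genes that passed in these fits are not given.

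The first principal axis of the table, which holds 27.5% of its variance, moved with the same groups. In arrays labelled KO its score averaged -10.7 ± 7.2 at CPO 0.5 (SD, n = 3; range -16.6 to -2.7) and 5.8 ± 18.0 at vehicle (n = 4; range -11.8 to 28.9). In WT arrays it averaged 8.2 ± 6.3 at CPO 0.5 (n = 3; range 1.7 to 14.2) and -9.8 ± 5.6 at vehicle (n = 6; range -16.1 to -0.9). With the score as a covariate the difference of effects was 0.08 for Txnrd1, -0.38 for Gsta4 and -0.23 for Nqo1 (limma, adjusted p = 0.987, 0.98 and 0.98). For Gpx4 it was -0.34 with the covariate (limma, adjusted p = 0.98), against -0.31 without. The axis was computed from the same levels, and Txnrd1 followed it at r = -0.78. A CPO effect may thus lie within the score, so no conclusion is drawn from the fit with it.

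At CPO 0.35 the difference of effects between arrays labelled KO and WT arrays was largest for Txnrd1, at 0.25, and Srxn1, at 0.21. The smallest adjusted p of the 10 was that of Gclc, 0.134, for a difference of 0.16 (limma). In that comparison 0.00669% of all genes passed and 0 of the 10 did. Between R192 and Q192 arrays the differences of effects ran from -0.17 for Gsta4 to 0.30 for Gstm1 at CPO 0.35 and from -0.33 for Gsta4 to 0.17 for Gstm1 at CPO 0.5. There too 0 of the 10 genes and 0% of all genes passed. At either dose 0 of the 10 had an unadjusted p under 0.05 in limma, against 5.56% of all genes at CPO 0.35 and 6.93% at CPO 0.5.

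**Figure D4:**
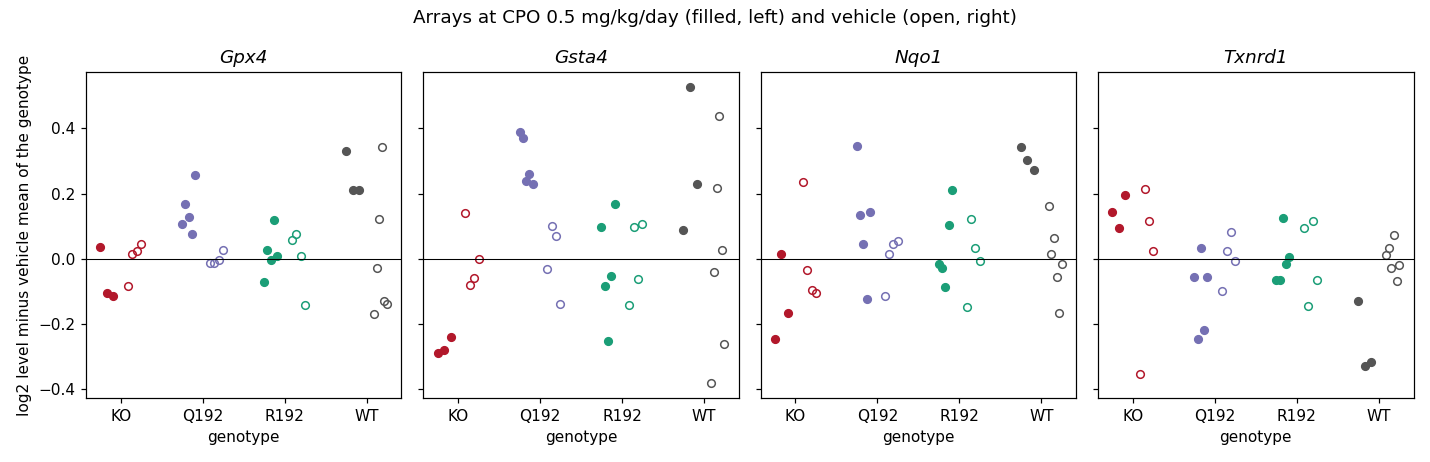
Log2 level of Gpx4, Gsta4, Nqo1 and Txnrd1 minus the vehicle mean of the same genotype, for arrays at CPO 0.5 mg/kg/day (filled, left) and at vehicle (open, right). In WT arrays Nqo1 lies above and Txnrd1 below vehicle with no overlap, while Gsta4 lies below vehicle in arrays labelled KO and above it in Q192 arrays. Points are single arrays.

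The 10 genes did not move as one across the arrays. Among their 45 pairs the median Pearson correlation over the 55 arrays was 0.12. Gsta4 and Gpx4 had r = 0.68, Gclm and Txnrd1 r = 0.66, and Gsta4 and Slc7a11 r = 0.56, whereas Gclm and Gsta4 had r = -0.56. Those arrays share genotypes, doses, dates and normalisation, and the values are a description. Txnrd1 (r = -0.78) and Gclm (r = -0.65) ran opposite to the score on the first principal axis. The score on that axis averaged 5.7 ± 6.9 in R192 arrays and -2.4 ± 15.2 in arrays labelled KO. With it as a covariate Gpx4 passed between R192 arrays and arrays labelled KO, at 0.21 (limma, adjusted p = 0.00786). Gpx4 followed that axis only weakly, at r = 0.29, so this fit could change its difference little. With the second axis, which holds 25.8% of the variance, Gpx4 correlated at r = -0.53. The second axis was not fitted as a covariate, and its part in the Gpx4 difference was not tested.

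**Figure D5:**
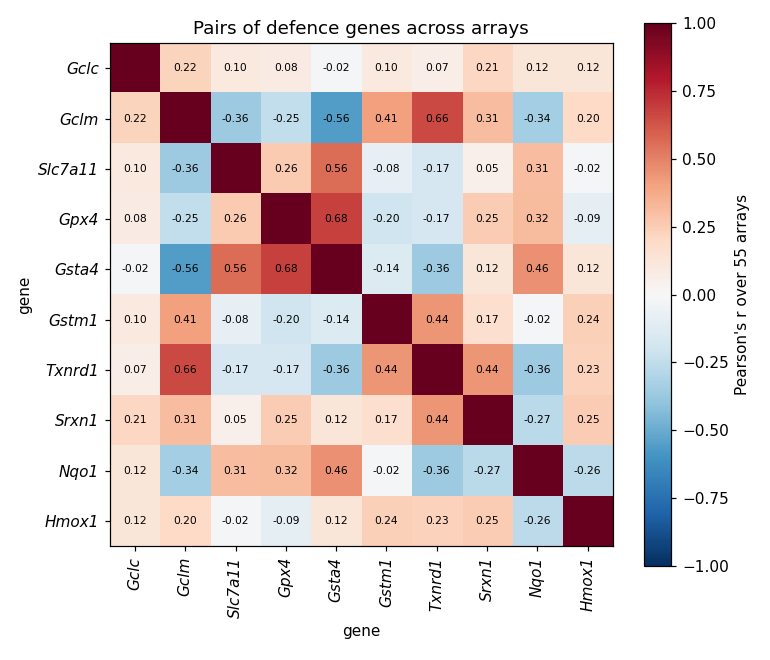
Pearson's r between each pair of the 10 genes over the 55 arrays, from -1 (blue) to 1 (red). Gsta4 with Gpx4 (0.68) and Gclm with Txnrd1 (0.66) are the highest pairs, and Gclm with Gsta4 (-0.56) is the lowest.

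The gene most like each of the 10, by Pearson's r over the 55 arrays among all genes tested, differed in kind. Gpx4 was closest to Sdhb, a subunit of respiratory complex II, at r = 0.90, and 50 genes exceeded r = 0.8 with it. Gsta4 was closest to the ribosomal protein gene Rpl6 (r = 0.88) and Txnrd1 to Ruvbl2, an ATPase of chromatin complexes (r = 0.88), with 113 genes beyond r = 0.8. Srxn1 was closest to Arl2 (r = 0.85) and correlated at r = 0.78 with the mean of the 11 myelin genes found of 12 listed. Gclm was closest to Egln1, an oxygen sensor (r = 0.82). Nqo1 (Prxl2a, r = 0.68), Hmox1 (Ctsd, r = 0.59) and Gclc (Slc26a8, r = 0.56) had no gene beyond r = 0.8. Gstm1 and Txnrd1 correlated with the mean of the 12 Bergmann glia and astrocyte genes, at r = 0.63 and 0.66.

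The wider pathway was read from 7 lists of 124 genes, of which 109 were tested, the 10 among them. In no comparison of CPO with vehicle did a listed gene pass. Of all genes, 1.04% passed in WT arrays at CPO 0.5 and 0.00669% in WT arrays at CPO 0.35. In the other comparisons with vehicle 0% did, so the absence is not read as particular to the lists. Between R192 arrays and arrays labelled KO, 9 of the 109 passed and all were higher in R192 arrays, which is 8.26% against 5.61% of all genes. The largest differences were those of Gstz1, a maleylacetoacetate isomerase, at 0.32 (limma, adjusted p = 0.0081), Gstm5 at 0.31 (0.0124) and the glutaredoxin Glrx3 at 0.29 (0.0171). The smallest were those of Gpx4, given above, of the biliverdin reductase Blvra at 0.19 (0.0127) and of the copper-zinc superoxide dismutase Sod1 at 0.15 (0.0228). Sod1 averaged 11.58 ± 0.04 in R192 arrays (SD, n = 14), against 11.44 ± 0.12 in arrays labelled KO and 11.41 ± 0.08 in WT arrays, and the difference from WT of 0.17 also passed (limma, adjusted p = 0.0202).

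The other gene of the lists that passed between genotypes was Blvrb, which reduces biliverdin and flavins. It averaged 7.71 ± 0.17 in arrays labelled KO (SD, n = 12), 7.74 ± 0.12 in Q192 arrays and 7.75 ± 0.11 in R192 arrays (n = 14 each), against 8.06 ± 0.13 in WT arrays (n = 15). All 3 lines were thus below WT, by log2 differences of -0.34, -0.32 and -0.31 that passed in limma with adjusted p of 9.55e-05, 9.5e-05 and 0.000184. These comparisons share the WT arrays. In the difference of the CPO 0.5 effect between arrays labelled KO and WT arrays, 5 of the 109 listed genes passed, which is 4.59% against 9.2% of all genes. They were Ggt7, of the gamma-glutamyltransferase family, at 0.73, the transcriptional repressor gene Bach2 at 0.50, Blvra at -0.41, the gamma-glutamylcyclotransferase Ggct at -0.49 and the microsomal transferase Mgst1 at -0.62, with adjusted p between 0.037 and 0.0483 in limma.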

How the data were processed

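RNA of 55 samples was measured on Affymetrix arrays. Per the submitters' processing notes, the authors made the deposited values with Affymetrix Expression Console 1.1 and RMA, which corrects background, equalises arrays and summarises probes. The deposited values were read as log2 levels, since they ran from 1.15 to 14.8, and no further normalisation was applied. Of 35557 probe sets, 21789 had 1 gene symbol. The probe set of highest mean stood for a gene. Genes with a mean over the 25th percentile (6.44), other than 3 sex-linked genes, were tested.

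All 55 arrays entered 1 fit in limma 3.58.1 (R 4.3.3) with group means, array date as a covariate and arrays of the same description number as a correlated block (36 numbers, correlation 0.131). What the number stands for is not said in the labels. The Benjamini-Hochberg adjustment ran over 14950 genes in each of 20 comparisons, with a threshold of 0.05. No label says that each array is a separate animal, so the p-values cover the spread between samples alone, which may be technical, and the number of arrays limits the precision. The fit was run on simulated data with independent noise, to check that differences put in were recovered on average. That check did not model shared description numbers or dates, and its error rates are not given. No arrays were identical among 104 pairs within groups. Deviations of arrays with the same replicate number correlated at a median r of 0.02, so the numbers do not pair the arrays. The 10 genes and all lists were chosen with earlier results of these data known. All 10 genes are named. Of the wider lists, those that passed are named, or the 3 highest and 3 lowest where over 6 passed.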

Additional observations from a re-analysis of the deposited data

Results flagged for a closer look

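On 8 occasions among the 100 combinations of a gene and a group of 4 to 10 arrays, a single array lay far from the rest of its group. For independent values chance alone gives about 1 in 20, but these genes were read on the same arrays. The share over all genes in these groups is not given, so the count is not read as an excess in the 10 genes. In R192 arrays at CPO 0.35, Gclm of replicate 2 was at 9.54, below the others at 9.83 to 9.93. In the same group Gsta4 of replicate 4 was at 10.58, below 10.79 to 10.86, and Hmox1 of replicate 5 was at 7.65, above 7.16 to 7.29. In R192 arrays at CPO 0.5, Gstm1 of replicate 3 was at 10.10, above 9.74 to 9.79. In arrays labelled KO at CPO 0.35, Gstm1 of replicate 5 was at 9.39, below 10.02 to 10.23, and this array shares its description number with R192 arrays. Gpx4 of replicate 4 in that group was at 11.31, below 11.56 to 11.66. In WT arrays at CPO 0.35, Gsta4 of replicate 5 was at 10.85, above 10.35 to 10.44. In WT vehicle arrays, Slc7a11 of replicate 4 was at 9.97, above 9.12 to 9.40.

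In 4 of 120 pairs of genotypes set side by side at the same dose, every CPO 0.5 array of one genotype stood above its vehicle mean and every one of the other below it. For Gsta4 the mean differences from vehicle were -0.27 in arrays labelled KO and 0.30 in Q192 arrays, -0.57 apart, and this was not tested. Against the 0.28 of WT arrays, Gsta4 in arrays labelled KO was -0.55 apart, and the fitted difference did not pass (limma, adjusted p = 0.0608). For Txnrd1 the means were 0.14 in arrays labelled KO and -0.26 in WT arrays, 0.40 apart (limma, adjusted p = 0.0519). For Slc7a11 they were -0.59 in arrays labelled KO and 0.25 in Q192 arrays, -0.83 apart, and this was not tested. All 4 cases involve arrays labelled KO at CPO 0.5, a group of 3 arrays. Of all genes, 9.2% passed for the difference of the CPO 0.5 effect between arrays labelled KO and WT arrays. The share of all genes with the pattern described here is not given, so the count is not read as particular to these genes.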

How the results depend on the processing

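The number of the 10 genes that passed was recomputed under 17 alternatives and 55 fits without 1 array each, and in 14 of 20 comparisons it did not move. Between R192 arrays and arrays labelled KO, where 1 passed, 2 passed without the description-number correlation, with genes above the median level, with quantile normalisation and with only these groups in the fit, and 0 passed on date 1 or date 2 alone. With array quality weights 7 passed there, 4 at CPO 0.5 in WT arrays, 3 between R192 and WT arrays, 1 between Q192 arrays and arrays labelled KO and 1 between R192 and Q192 arrays, while more of all genes passed too. The last pair also gave 1 with only its groups in the fit. For the difference of the CPO 0.5 effect between arrays labelled KO and WT arrays, 2 passed without the date covariate, without the number correlation, with genes above the median level, with arrays centred on their medians, with weights and with brainstem markers as a covariate. Fits without 1 array gave 1 to 2 between R192 arrays and arrays labelled KO, 0 to 2 for the difference of effects, and 0 to 1 at CPO 0.5 in WT arrays and between R192 and WT arrays, the 1 arising without WT vehicle replicate 4 in both. The cause of these moves was not tested. Apart from the weights, the shares of all genes that passed in these settings are not given here, so no rise is read as particular to the 10 genes. With the replicate block, Gpx4 was at 0.21 between R192 arrays and arrays labelled KO (limma, adjusted p = 0.0133), and the block moved no count. No called difference turned sign. The second Gpx4 probe set and the principal axis as a covariate were chosen after seeing the data.

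Groups of 3 to 6 arrays leave 95% intervals of up to 0.43 on either side of a CPO difference. Larger differences could also be missed, since Slc7a11 at -0.55 in arrays labelled KO at CPO 0.5 did not pass. Some alternative readings of the probes are not covered, such as probes shared with pseudogenes or related genes. Sex, litter and dissection are not labelled.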
